A study of Homo sapiens with 9 samples.

Results

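The endoplasmic reticulum (ER) chaperone and unfolded protein response genes were a list of 35, made up of ER chaperones, disulfide-forming enzymes, stress sensors with their transcription factors, and genes of ER-associated degradation and translocation. They were listed by name, by known function, with earlier results of these data known. Of these, 34 had a probe set annotated to a single gene symbol, among 18417 genes named in this way and 33297 probe sets on the array. PDIA3 was annotated only together with the pseudogene PDIA3P1 and is described apart. The cells were H295R, a line derived from a human adrenocortical carcinoma that makes steroid hormones and is used as a model of the adrenal cortex, so all 9 arrays came from 1 tumour line with no normal adrenal cells. After 24 h in growth medium, the cells spent 48 h in serum-free medium with 10 mM metformin (starvation with metformin, n = 3), in serum-free medium alone (starvation, n = 3), or in growth medium with NU-I serum and an insulin, transferrin and selenium supplement (normal growth, n = 3). Metformin is a biguanide used to lower blood glucose, and it was given here at 1 dose and 1 time, only to starved cells. Starvation removed the serum and the supplement together. RNA was read on the Human Gene 1.0 ST array, which has probes along the exons of each transcript, and the values are log2 scale RMA (robust multi-array average) levels.

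The ER folds secreted and membrane proteins. When unfolded protein builds up there, HSPA5 (BiP) leaves the 3 sensors IRE1 (ERN1), PERK (EIF2AK3) and ATF6. IRE1 splices XBP1 mRNA into the form that encodes an active transcription factor, PERK phosphorylates a translation initiation factor and thereby favours ATF4, and ATF6 is cut in the Golgi to release a transcription factor. The genes these factors switch on encode chaperones, oxidising enzymes and the machinery that sends misfolded protein back to the cytosol for degradation. In steroid-producing cells the ER membrane also carries several of the enzymes of hormone synthesis.

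Part of this response is read through short promoter elements, so the 250 bases before each annotated gene start were searched on both strands for 4 of them. These were the ER stress element ERSE (CCAAT, then 9 bases of any kind, then CCACG), its compact form ERSE-II (ATTGG, then 1 base of any kind, then CCACG), the unfolded protein response element UPRE (TGACGTGG) and the C/EBP-ATF element (TGATGNAA, where N is any base) bound by dimers that include ATF4. Of the 35 genes, 32 had a window in the RefSeq promoter table (GRCh38.p14). An exact ERSE lay in 9 of the 32, and in 0.074% of all 35116 windows. ERSE-II lay in 3 of the 32 (HYOU1, HERPUD1 and SDF2L1), and in 0.0513% of all windows. ERSE or ERSE-II was thus found in 37.5% of the listed genes with a window, against 0.157% of all 27305 genes with one. It lay upstream of 0 of the genes with a window in the 7 other pathway lists described below. The genes were listed by known function in the response that these elements serve, so this contrast was not independent of the listing. UPRE was found only upstream of HYOU1 among the 32 (0.612% of all windows), where it overlaps an ERSE-II, and the C/EBP-ATF element only upstream of HERPUD1 (3.14% of all windows). A match is a description of these letters and does not show that a factor was bound in these cells, and elements outside the window or with other letters were not looked for. Genes with none of these elements, such as EDEM1 and DNAJB9, are not printed. The upstream bases of 5 genes are printed because they hold these elements. They run 5′ to 3′ towards the gene start, with the fixed letters of each match in capitals, and were read from RefSeq at chr9:125241344-125241593 on the minus strand for HSPA5, chr12:103930160-103930409 on the plus strand for HSP90B1, chr11:119057206-119057455 on the minus strand for HYOU1, chr22:28800570-28800819 on the minus strand for XBP1 and chr16:56931892-56932141 on the plus strand for HERPUD1.
HSPA5: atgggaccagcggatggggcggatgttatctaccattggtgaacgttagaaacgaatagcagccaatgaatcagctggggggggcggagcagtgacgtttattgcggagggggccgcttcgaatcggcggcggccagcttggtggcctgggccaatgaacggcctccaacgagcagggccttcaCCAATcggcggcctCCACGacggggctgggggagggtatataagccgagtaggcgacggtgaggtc
HSP90B1: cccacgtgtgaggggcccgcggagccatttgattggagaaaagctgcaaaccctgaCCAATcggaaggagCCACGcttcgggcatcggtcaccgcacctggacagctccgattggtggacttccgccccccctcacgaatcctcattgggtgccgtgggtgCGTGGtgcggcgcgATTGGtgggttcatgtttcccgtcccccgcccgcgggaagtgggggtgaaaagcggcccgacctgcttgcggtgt
HYOU1: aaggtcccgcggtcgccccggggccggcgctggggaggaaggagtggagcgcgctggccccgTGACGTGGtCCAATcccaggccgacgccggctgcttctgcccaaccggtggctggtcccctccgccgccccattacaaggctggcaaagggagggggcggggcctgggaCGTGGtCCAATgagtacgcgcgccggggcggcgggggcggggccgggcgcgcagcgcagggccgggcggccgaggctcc
XBP1: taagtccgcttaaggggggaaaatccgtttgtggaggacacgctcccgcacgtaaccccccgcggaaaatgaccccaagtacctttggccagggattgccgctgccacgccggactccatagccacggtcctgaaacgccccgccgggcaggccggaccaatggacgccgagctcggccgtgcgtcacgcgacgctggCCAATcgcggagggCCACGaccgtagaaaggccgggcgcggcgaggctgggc
HERPUD1: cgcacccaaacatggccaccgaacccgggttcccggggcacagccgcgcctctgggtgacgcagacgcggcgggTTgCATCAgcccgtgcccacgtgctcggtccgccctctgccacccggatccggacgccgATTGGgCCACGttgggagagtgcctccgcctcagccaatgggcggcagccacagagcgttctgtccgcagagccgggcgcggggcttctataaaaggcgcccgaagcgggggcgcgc
In HSPA5 and XBP1 the capitals mark 1 ERSE in its forward orientation, and in HSP90B1 they mark 1 ERSE in each orientation. HYOU1 has 2 ERSE-II matches, both in the reverse orientation, the first of them joined to the UPRE. HERPUD1 has the C/EBP-ATF element in the reverse orientation, followed by ERSE-II in the forward one. The other listed genes with an exact ERSE each held a single match.
CALR: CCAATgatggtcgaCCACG
CANX: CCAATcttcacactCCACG
CRELD2: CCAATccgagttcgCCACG
ERO1B: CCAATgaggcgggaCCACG
PDIA6: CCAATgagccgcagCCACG
SERP1: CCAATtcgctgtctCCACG
Between the fixed letters the 9 spacer bases differ from gene to gene. The map of these matches shows that they sit at various distances from the start.

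**Figure D1:**
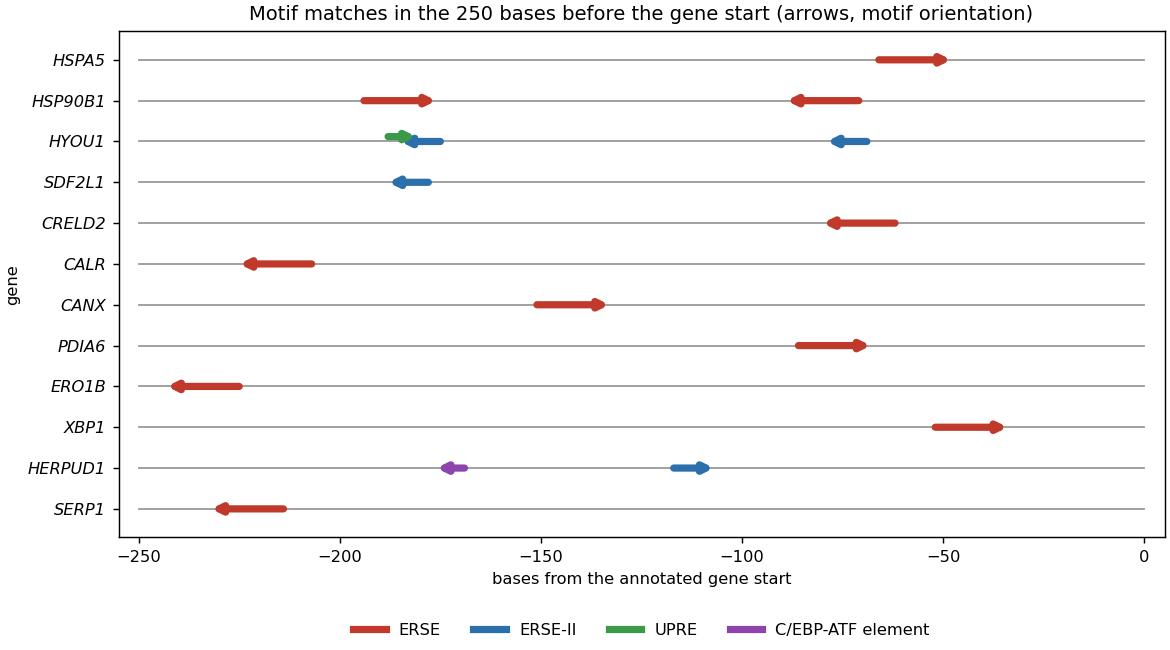
Positions of exact motif matches in the 250 bases before the gene start, for the 12 listed genes with an ERSE or ERSE-II. The horizontal axis is the distance in bases from the annotated start, and arrows give the orientation of the motif. ERSE is red, ERSE-II blue, UPRE green and the C/EBP-ATF element purple.

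The ER list was higher in starved cells with metformin than in cells in normal growth. In that comparison 14 of 34 genes (41.2%) were higher at an adjusted p under 0.05 in limma's fit of the 6 arrays compared, which is what a call means below, and 0 were lower, where 4.63% of all probe sets were called higher and 4.44% lower. The genes called were HSPA5, HSP90B1, HYOU1, DNAJB9, DNAJC3, PDIA4, PDIA6, ERO1A, ERO1B, XBP1, HERPUD1, EDEM1, EDEM2 and SERP1. Most of the listed genes were bright on the array. Among the 3550 named genes at least as bright as their lower quartile, termed the brighter genes below, 9.3% were called higher and 14.1% lower. The listed genes under that quartile are dimmer than these. Among the 10770 named genes at least as bright as the dimmest listed gene, 9.44% were called higher. The changes were small, since 4 of the 14 passed 1.5-fold (XBP1, DNAJB9, HYOU1 and EDEM1) and 0 passed 2-fold, where 1.36% and 0.27% of all probe sets were called higher past these folds. The median log2 change was 0.24, against -0.00 across the whole array. Every metformin array lay above every growth array for 26 of 34 genes, against 14.3% of all probe sets and 26.6% of the brighter genes. Starvation with metformin differs from normal growth both in serum and in the drug, and this comparison cannot tell the 2 apart. In RNA from whole cultures, more RNA per cell and more cells making it cannot be told apart either.

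Between starved cells with and without metformin, the comparison that isolates the drug, 2 genes were called higher (HYOU1 and EDEM1) and 0 lower. That is 5.88% of the list. Of all probe sets, 2.3% were called higher and 1.98% lower, and of the brighter genes 4.2% and 6.65%. Of the named genes at least as bright as the dimmest listed gene, 4.86% were called higher. The higher direction was shared more widely than the calls, though 8 of the 34 genes had a log2 change below 0. All 3 metformin arrays lay above all 3 starved arrays for 18 of 34 genes, where the same held for 13.8% of all probe sets and 24.2% of the brighter genes. The median log2 change was 0.15, against -0.01 across the whole array. For 5 genes (UGGT1, ERN1, DERL2, SEC61A1 and SEC61B) all 3 metformin arrays lay below all 3 starved arrays. The same held for 11.4% of all probe sets and 31.4% of the brighter genes. Before adjustment, 16 genes were higher and 2 lower with a p under 0.05, where 11.3% and 8.63% of all probe sets were. Of the brighter genes, 16.6% were higher and 22.8% lower in this way.

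Between starved cells and cells in normal growth, limma called 0 of the 34 genes higher and 0 lower, and of all probe sets 0.042% were called higher and 0.108% lower. Before adjustment, 13 genes were higher and 0 lower with a p under 0.05, against 3.3% of all probe sets higher and 4.74% lower. Of the brighter genes, 6.56% were higher and 8.76% lower in this way. All 3 starved arrays lay above all 3 growth arrays for 20 of 34 genes, against 5.4% of all probe sets and 11.9% of the brighter genes. The list had a median log2 change of 0.09, against -0.00 across the whole array. For 11 genes (HSPA5, HSP90B1, HYOU1, DNAJB9, PDIA4, PDIA6, ERO1A, ERO1B, EIF2AK3, XBP1 and SERP1) every metformin array lay above every starved array and every starved array above every growth array. That order was found in 1.33% of all probe sets and 4.03% of the brighter genes. The 3 comparisons share arrays pairwise and are not independent of each other.

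**Figure D2:**
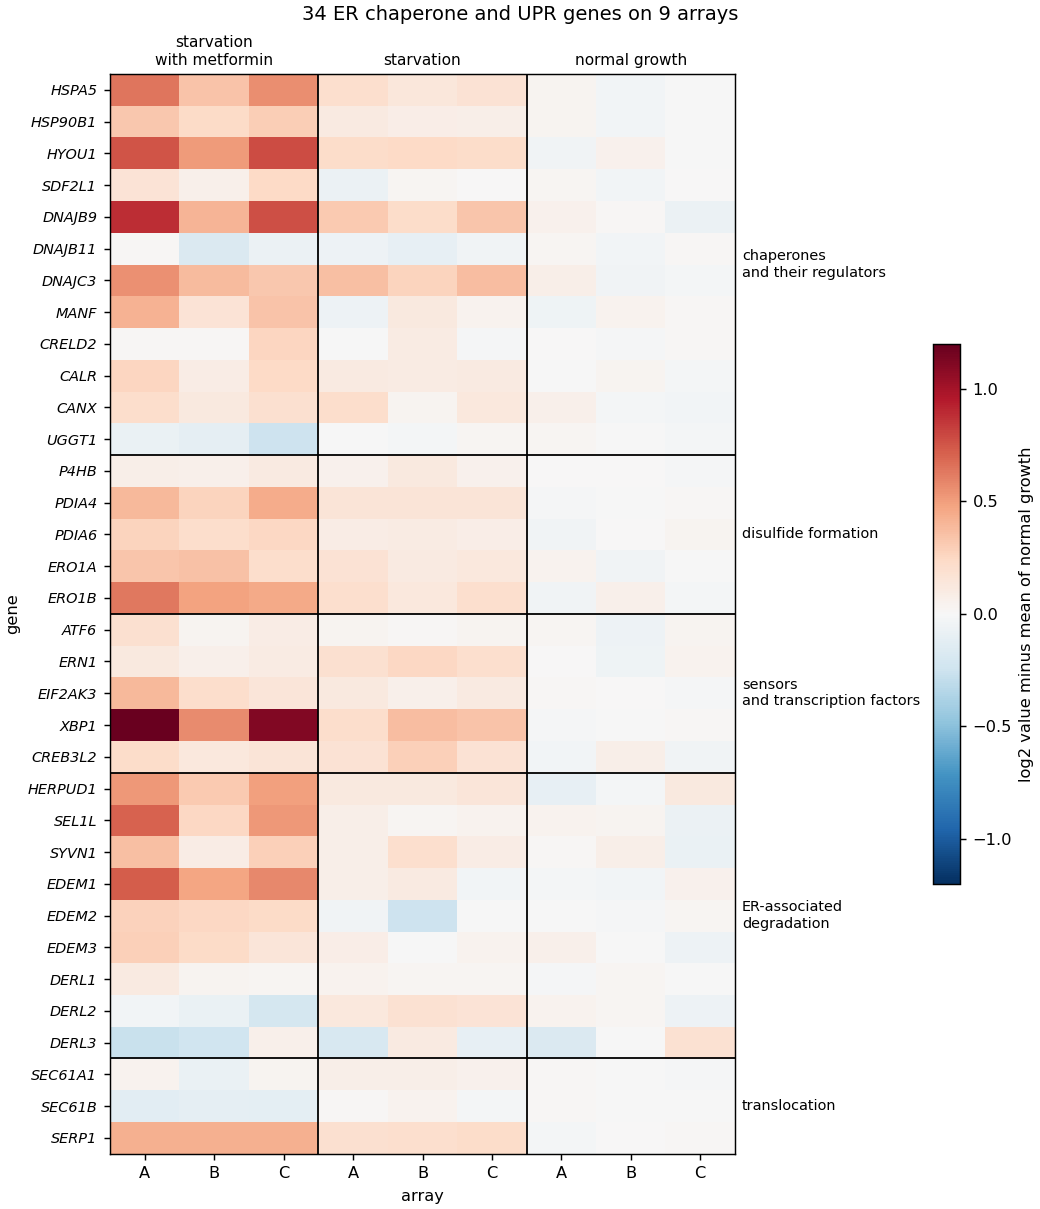
Log2 value of each of the 34 genes on each of the 9 arrays, minus that gene's mean in normal growth. Columns are arrays A to C of starvation with metformin, starvation and normal growth, rows are genes grouped by role, and red is above the growth mean. The strongest red is in XBP1, DNAJB9 and HYOU1 on metformin arrays A and C, with array B paler, and the starved columns are lightly red.

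Of the 12 chaperones and their regulators, 5 were called higher in starvation with metformin than in normal growth and 7 were not called. HSPA5 (BiP), the Hsp70 of the ER and the gatekeeper of the stress sensors, had log2 values of 12.52, 12.22 and 12.43 on the metformin arrays, against 12.07, 12.01 and 12.05 in starvation and 11.91, 11.84 and 11.87 in normal growth. The 3 groups did not overlap, and metformin array B lay nearest the starved arrays. HSPA5 was 1.43-fold higher with metformin than in normal growth (log2 change 0.51, SE 0.09, adjusted p = 0.022). Its log2 change was 0.35 with metformin against starvation (SE 0.09, adjusted p = 0.0948) and 0.17 in starvation against normal growth (SE 0.04, adjusted p = 0.32), neither past the threshold.

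HYOU1, an Hsp70-like protein that exchanges nucleotide on HSPA5, is 1 of the 2 genes called against starvation alone. It read 10.26, 10.02 and 10.28 with metformin, 9.73, 9.74 and 9.73 in starvation, and 9.46, 9.56 and 9.50 in normal growth. The starved arrays were almost equal and stood between the other groups without overlap. HYOU1 was 1.37-fold higher with metformin than in starvation (log2 change 0.46, SE 0.08, adjusted p = 0.0442) and 1.61-fold higher than in normal growth (0.68, SE 0.08, adjusted p = 0.0113). Between starvation and normal growth the log2 change was 0.23 (SE 0.04, adjusted p = 0.196).

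DNAJB9 (ERdj4), a co-chaperone of HSPA5 known to restrain IRE1, had values of 9.0, 8.52 and 8.88 with metformin, 8.43, 8.33 and 8.44 in starvation, and 8.16, 8.13 and 8.04 in normal growth. The groups did not overlap, but metformin array B lay just above the starved arrays. Against normal growth DNAJB9 was 1.61-fold higher with metformin (log2 change 0.69, SE 0.13, adjusted p = 0.0299), and against starvation its log2 change of 0.40 did not pass (SE 0.13, adjusted p = 0.161). Starvation against normal growth gave 0.29 (SE 0.06, adjusted p = 0.197).

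HSP90B1 (GRP94), the Hsp90 of the ER, had a smaller and tighter shift. Its values were 12.51, 12.40 and 12.47 with metformin, 12.28, 12.26 and 12.25 in starvation, and 12.21, 12.15 and 12.18 in normal growth. Again each group stood clear of the next. With metformin HSP90B1 was 1.22-fold higher than in normal growth (log2 change 0.28, SE 0.05, adjusted p = 0.029), with a log2 change of 0.20 against starvation (SE 0.05, adjusted p = 0.114) and of 0.09 in starvation against normal growth (SE 0.04, adjusted p = 0.697).

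DNAJC3 (P58IPK), a co-chaperone that also inhibits PERK, was called against normal growth (log2 change 0.42, SE 0.08, adjusted p = 0.0277), and most of that difference lay between starvation and normal growth. Its log2 change was 0.08 with metformin against starvation, with overlapping arrays, and 0.33 in starvation against normal growth, which was not called. MANF, a secreted ER stress-induced factor, had a log2 change of 0.31 against normal growth (adjusted p = 0.0665). The lectin chaperones that hold glycoproteins in the folding cycle, CALR and CANX, had log2 changes of 0.19 and 0.17, and SDF2L1 and CRELD2 of 0.15 and 0.10, none of them called in that fit. CANX passed with limma's trend and robust options (adjusted p = 0.0388). DNAJB11 (ERdj3) and UGGT1, the enzyme that tags misfolded glycoproteins for another round, had log2 changes below 0 with metformin against normal growth, at -0.08 and -0.15. An exact ERSE or ERSE-II thus lies upstream of chaperone genes that were called (HSPA5, HSP90B1 and HYOU1) and of others that were not (CALR, CANX, CRELD2 and SDF2L1).

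Most of the oxidising enzymes were higher. Of the 5 disulfide genes measured singly, 4 were called higher with metformin than in normal growth, and all 5 had every metformin array above every growth array. ERO1B, a thiol oxidase that hands electrons from protein disulfide isomerases to oxygen, had values of 8.34, 8.19 and 8.16 with metformin, 7.91, 7.83 and 7.91 in starvation, and 7.66, 7.76 and 7.68 in normal growth. The groups did not overlap, and here array C, not B, was the lowest metformin array. ERO1B was 1.44-fold higher with metformin than in normal growth (log2 change 0.53, SE 0.07, adjusted p = 0.0121). Its log2 change of 0.35 against starvation did not pass (SE 0.07, adjusted p = 0.0537), and starvation against normal growth gave 0.18 (SE 0.05, adjusted p = 0.38).

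Its paralogue ERO1A, which is also induced by hypoxia, had a log2 change of 0.30 against normal growth (SE 0.06, adjusted p = 0.036). The disulfide isomerases PDIA4 and PDIA6 had log2 changes of 0.37 (SE 0.06, adjusted p = 0.0229) and 0.24 (SE 0.05, adjusted p = 0.0369). P4HB, the classical disulfide isomerase, stayed closest to its growth level, with a log2 change of 0.08 on its brighter probe set and of 0.10 on the other (adjusted p = 0.266). PDIA3, the isomerase that works with CALR and CANX, was read on 2 probe sets that it shares with PDIA3P1, so gene and pseudogene cannot be told apart there. On the brighter of them the values were 12.06, 12.01 and 12.08 with metformin, 11.97, 11.87 and 11.92 in starvation, and 11.85, 11.81 and 11.73 in normal growth. The metformin arrays were the highest and the growth arrays the lowest. The log2 change with metformin against normal growth was 0.26 (SE 0.05, adjusted p = 0.0429), and it was 0.25 on the other probe set (adjusted p = 0.0408).

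Among the 5 sensors and transcription factors, XBP1 was called in the fit of the 6 arrays compared and the other 4 were not. Its log2 change against normal growth was the largest of the 34 genes. XBP1 read 10.52, 9.90 and 10.45 with metformin, against 9.55, 9.70 and 9.68 in starvation and 9.32, 9.33 and 9.35 in normal growth. The groups did not overlap, yet metformin array B stood well below arrays A and C. XBP1 was 1.94-fold higher with metformin than in normal growth (log2 change 0.96, SE 0.17, adjusted p = 0.0242). Against starvation it was 1.57-fold higher, which did not pass the threshold (log2 change 0.65, SE 0.17, adjusted p = 0.103), and starvation against normal growth gave 0.31 (SE 0.05, adjusted p = 0.169). The gene-level value does not separate spliced from unspliced XBP1 mRNA, so IRE1 activity was not measured. Against starvation XBP1 was called without metformin array B (log2 change 0.84, adjusted p = 0.0282) and not without any other array. It was also called against starvation with all 9 arrays in one limma fit (adjusted p = 0.029), and in none of the remaining alternatives. Against normal growth its call was lost without metformin array A or C (adjusted p = 0.0678 and 0.0512), without any growth array (0.0958 to 0.101) and with the methods' t-test (0.0879), and over all 15 alternatives the adjusted p was 0.00472 to 0.101.

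In limma's fits of 6 arrays the 3 sensors passed the threshold in none of the 3 comparisons. ERN1 (IRE1) read 9.80, 9.75 and 9.78 with metformin, 9.87, 9.93 and 9.89 in starvation, and 9.69, 9.63 and 9.73 in normal growth. Unlike most of the list, its starved arrays were the highest of the 9, with the metformin arrays between them and the growth arrays. Its log2 change was -0.12 with metformin against starvation (SE 0.05, adjusted p = 0.268), 0.21 in starvation against normal growth (SE 0.05, adjusted p = 0.234) and 0.09 with metformin against normal growth (SE 0.05, adjusted p = 0.351).

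EIF2AK3 (PERK) read 9.03, 8.85 and 8.79 with metformin, 8.76, 8.70 and 8.75 in starvation, and 8.65, 8.64 and 8.63 in normal growth. The groups did not overlap, but metformin array C came close to the starved arrays. The log2 changes of EIF2AK3 were 0.25 with metformin against normal growth (SE 0.07, adjusted p = 0.104), 0.16 against starvation (SE 0.08, adjusted p = 0.345) and 0.09 in starvation against normal growth (SE 0.04, adjusted p = 0.655). With all 9 arrays in one limma fit, the change against normal growth passed the threshold (adjusted p = 0.0455).

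ATF6 read 11.24, 11.08 and 11.13 with metformin, 11.09, 11.06 and 11.08 in starvation, and 11.07, 10.99 and 11.08 in normal growth. Its groups overlapped in every comparison. The log2 changes of ATF6 were 0.10 with metformin against normal growth (SE 0.06, adjusted p = 0.408), 0.08 against starvation (SE 0.06, adjusted p = 0.566) and 0.03 in starvation against normal growth (SE 0.05, adjusted p = 0.929). CREB3L2, an ER-anchored factor of the ATF6 kind, had a log2 change of 0.16 with metformin against normal growth (adjusted p = 0.156). The sensors act through protein modification, which the array does not read.

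**Figure D3:**
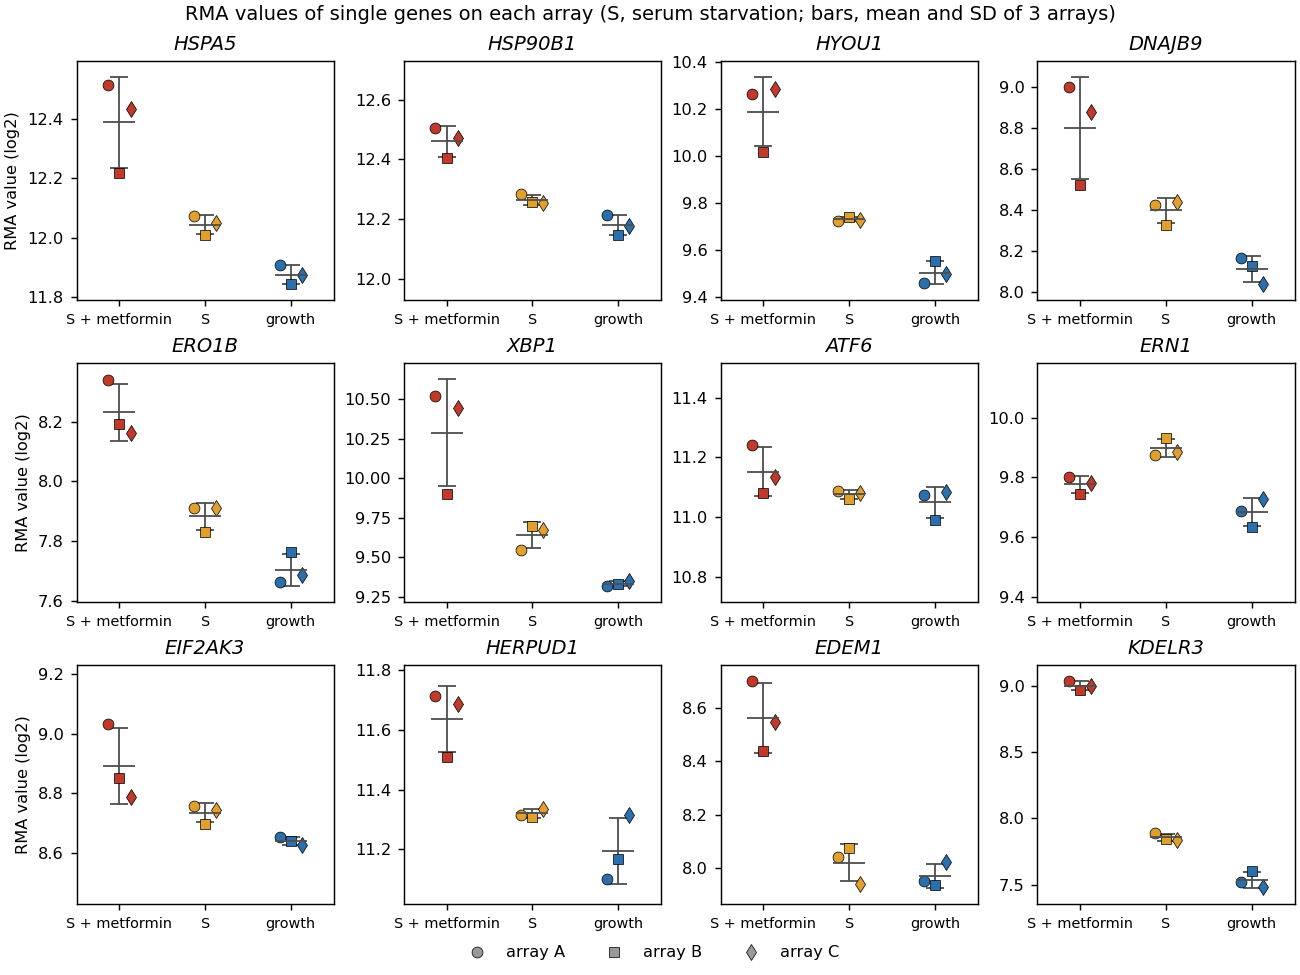
Log2 RMA value on each array for 11 genes of the ER list and for KDELR3, with starvation with metformin on the left of each panel, starvation in the middle and normal growth on the right. Each panel has its own scale that does not start at 0, symbols give arrays A, B and C, and bars give the mean and SD of 3 arrays. For HSPA5, HYOU1, DNAJB9 and XBP1 the square of metformin array B lies below arrays A and C.

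Of the 9 genes of ER-associated degradation, 3 were called higher with metformin than in normal growth and 0 lower. EDEM1, a lectin that picks mannose-trimmed glycoproteins for degradation, had values of 8.70, 8.44 and 8.55 with metformin, 8.04, 8.08 and 7.94 in starvation, and 7.95, 7.94 and 8.02 in normal growth. The starved and growth arrays overlapped, while every metformin array lay above both. EDEM1 was 1.46-fold higher with metformin than in starvation (log2 change 0.54, SE 0.08, adjusted p = 0.0307) and 1.51-fold higher than in normal growth (0.59, SE 0.08, adjusted p = 0.013), with 0.05 between starvation and normal growth (SE 0.05, adjusted p = 0.881).

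HERPUD1, a membrane protein that assembles the degradation complex, read 11.71, 11.51 and 11.69 with metformin, 11.32, 11.31 and 11.34 in starvation, and 11.10, 11.17 and 11.31 in normal growth. The metformin arrays stood above all others, and growth array C reached the level of the starved arrays. HERPUD1 was 1.36-fold higher with metformin than in normal growth (log2 change 0.44, SE 0.09, adjusted p = 0.0322). Its log2 change was 0.32 against starvation (SE 0.07, adjusted p = 0.0713) and 0.13 in starvation against normal growth (SE 0.06, adjusted p = 0.724).

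EDEM2, a mannosidase that starts the trimming, was called against normal growth on a small difference (log2 change 0.25, SE 0.05, adjusted p = 0.0282). It read 9.08, 9.05 and 9.04 with metformin, 8.77, 8.56 and 8.80 in starvation, and 8.80, 8.79 and 8.83 in normal growth. As for EDEM1, the starved arrays did not lie above the growth arrays. SEL1L, the adaptor of the ubiquitin ligase complex, had a larger log2 change of 0.49 with a larger error (SE 0.12, adjusted p = 0.0639), and the ligase SYVN1 (HRD1) had 0.25 (adjusted p = 0.158) and EDEM3 0.22 (adjusted p = 0.0861). The derlins, membrane proteins of the exit channel, differed from these. DERL1 had a log2 change of 0.06, DERL2 of -0.11 and DERL3 of -0.15 with metformin against normal growth. For DERL2 every metformin array lay below every starved array, with a log2 change of -0.27 that did not pass (SE 0.07, adjusted p = 0.0861).

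Of the 3 translocation genes, SERP1 (RAMP4), which associates with the SEC61 channel and stabilises new membrane proteins under stress, was called against normal growth. Its values were 11.22 on each metformin array, 10.99, 11.00 and 11.01 in starvation, and 10.77, 10.80 and 10.81 in normal growth. The groups stood in even steps with very little spread, and array B did not stand apart here. With metformin against normal growth SERP1 was higher by 0.43 on the log2 scale (SE 0.04, adjusted p = 0.00737). The channel subunits themselves, SEC61A1 and SEC61B, had log2 changes of -0.00 and -0.12 and were not called.

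**Figure D4:**
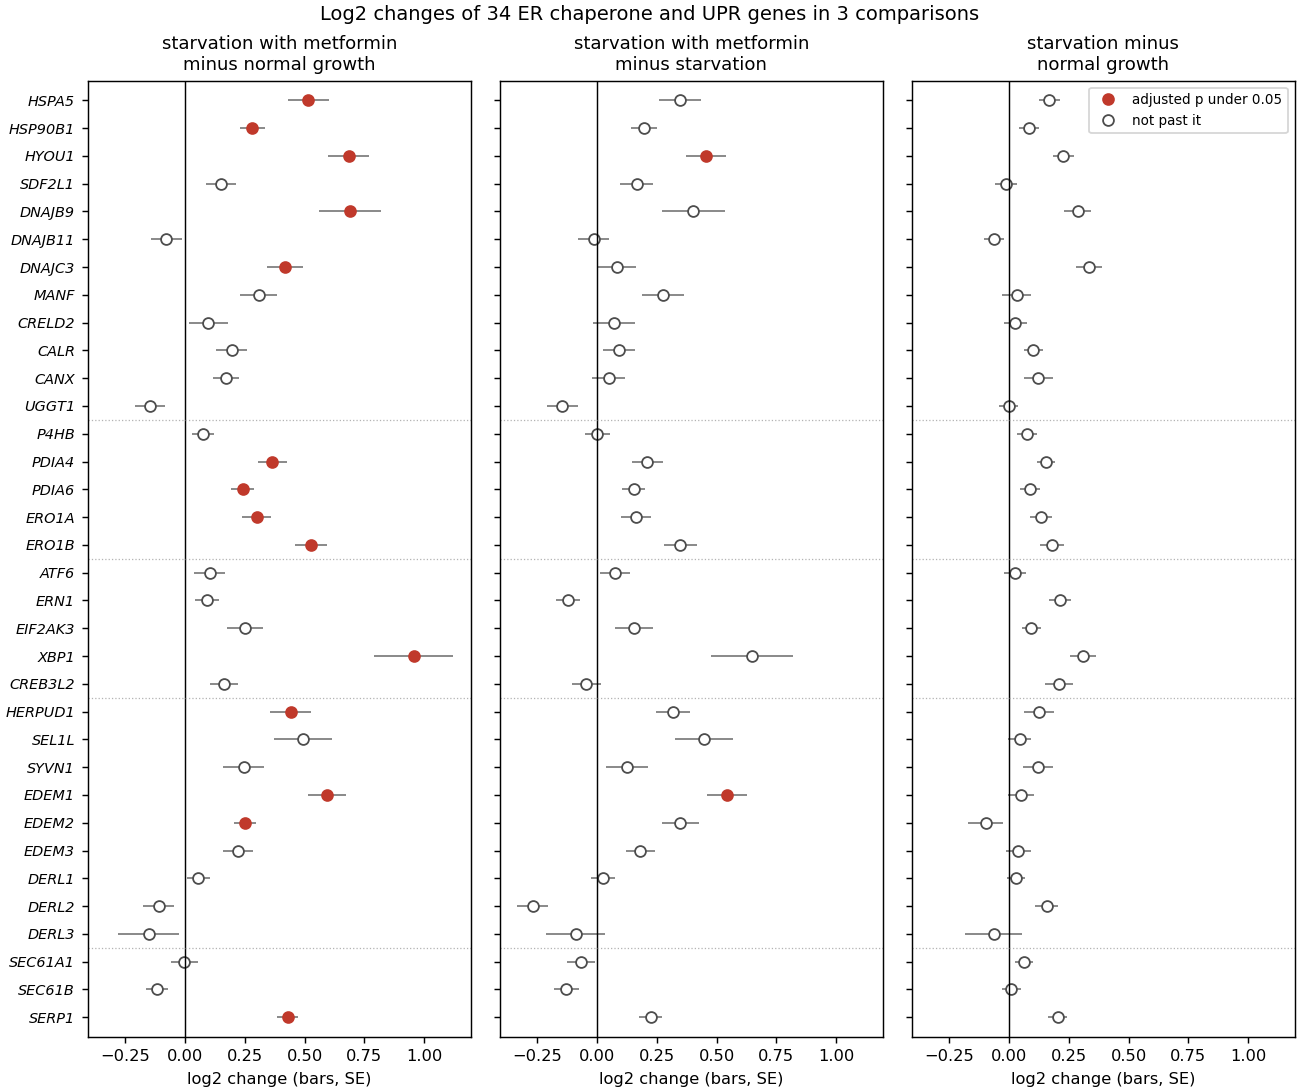
Log2 change of each of the 34 genes in the 3 comparisons, with the standard error as a bar. Filled red points passed an adjusted p of 0.05 over all probe sets. Of the 34 genes, 14 were called with metformin against normal growth, 2 with metformin against starvation (HYOU1 and EDEM1) and 0 between starvation and normal growth.

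Read by promoter element, 8 of the 12 genes with an exact ERSE or ERSE-II were called higher with metformin than in normal growth, with a median log2 change of 0.36 and a range of 0.10 to 0.96. Of the 20 genes with a window and neither element, 6 were called, with a median of 0.23 and a range of -0.15 to 0.69. EDEM1, DNAJB9 and PDIA4 are among these. Against starvation the medians were 0.21 and 0.10, with 1 gene called in each set. Whether the 2 sets differ was not tested.

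The metformin arrays were the least alike, with pairwise Pearson correlations over all probe sets of 0.990 to 0.995, against 0.994 to 0.997 within starvation and 0.996 to 0.997 within normal growth. Many genes of the list shared an order of the metformin arrays. Of the 34 genes, 25 were highest on metformin array A and 21 were lowest on array B. Array B was the lowest of the 3 for 28.5% of all named genes, dim ones included. The share of all genes highest on array A was not counted, nor were these shares among the brighter genes, so the order is not shown to be particular to the list. The median level over the list was 10.36, 10.16 and 10.25 on metformin arrays A, B and C, against 10.19, 10.10 and 10.17 in starvation and 9.97, 9.88 and 9.91 in normal growth. Metformin array B was thus below starved arrays A and C on this measure, and the growth arrays were below all others. Without metformin array B, 12 genes were called higher against normal growth (10 of the 14, with MANF and SEL1L), with 1033 probe sets higher over the whole array, and 5 against starvation (HYOU1, EDEM1, XBP1, DNAJB9 and SEL1L), with 366 probe sets. With all 6 arrays these probe set counts were 1543 and 766. Without metformin array A, 5 genes of the list and 719 probe sets were higher against normal growth, and 0 genes and 0 probe sets against starvation. Without metformin array C, 11 genes and 2079 probe sets were higher against normal growth, and 0 genes but 799 probe sets against starvation. Without growth array A, B or C, 0, 1 and 1 genes were called against normal growth, with 213, 200 and 265 probe sets higher. Without starved array A, B or C, 0 genes and 0 of all 33297 probe sets were called against starvation. Each such fit holds 5 arrays.

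Genes of the same compartments but outside the list were counted in the same way. Of 29 other ER folding enzymes, 8 (27.6%) were called higher and 0 lower with metformin against normal growth, with a median log2 change of 0.17. In that comparison 4.63% of all probe sets were called higher and 4.44% lower, and of the brighter genes 9.3% and 14.1%. PDIA5, another disulfide isomerase, had 9.28, 9.40 and 9.27 with metformin, 8.84 on each starved array, and 8.55, 8.58 and 8.57 in normal growth. Its groups did not overlap. PDIA5 was higher by 0.75 on the log2 scale against normal growth (SE 0.06, adjusted p = 0.0051) and of 0.48 against starvation (SE 0.06, adjusted p = 0.0199). The next by size were CLGN, a calnexin relative best known from testis (0.57), SIL1, a nucleotide exchange factor for HSPA5 (0.56), and DNAJC10 (ERdj5), a reductase of ER degradation (0.45). Against starvation TXNDC11 was the other gene called, with a log2 change of 0.30. Higher calls against starvation made up 6.9% of these enzymes, 2.3% of all probe sets and 4.2% of the brighter genes.

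Of 25 genes of ER to Golgi transport, 6 (24%) were called higher and 0 lower against normal growth, with a median of 0.11. Higher calls there made up 4.63% of all probe sets and 9.3% of the brighter genes. KDELR3, a receptor that returns escaped ER chaperones from the Golgi, had 9.03, 8.97 and 9.0 with metformin, 7.89, 7.85 and 7.84 in starvation, and 7.53, 7.60 and 7.48 in normal growth. The metformin arrays stood far above the rest, and array B was not apart. Its log2 change was 1.14 against starvation (SE 0.05, adjusted p = 0.0101) and of 1.46 against normal growth (SE 0.05, adjusted p = 0.0020), larger than that of any gene in the ER list. SEC24D, a cargo-binding subunit of the vesicle coat, read 9.43, 9.14 and 9.43 with metformin, 8.85, 8.78 and 8.82 in starvation, and 8.36, 8.38 and 8.41 in normal growth. Its groups did not overlap, and it was the only gene of the ER list and the 7 other pathway lists called in all 3 comparisons. The log2 changes of SEC24D were 0.51 against starvation (SE 0.09, adjusted p = 0.044), 0.95 against normal growth (SE 0.09, adjusted p = 0.0064) and 0.43 in starvation against normal growth (SE 0.04, adjusted p = 0.0472). BET1 and SEC23B each had 0.30 with metformin against normal growth.

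Other parts of the secretory pathway had fewer calls. Of 18 other ER-associated degradation genes, 2 were called higher (ERLEC1, 0.34, and HERPUD2, 0.30) and 1 lower with metformin against normal growth, with a median of 0.05. The 11.1% called higher is near the 9.3% of the brighter genes, where 4.63% of all probe sets were. Lower calls made up 4.44% of all probe sets and 14.1% of the brighter genes. The gene called lower was UFD1, a cofactor of the VCP segregase that pulls proteins out of the ER membrane, which read 9.66, 9.61 and 9.60 with metformin, 10.16, 10.22 and 10.16 in starvation, and 10.25, 10.26 and 10.31 in normal growth. Its metformin arrays stood well below the rest. UFD1 had log2 changes of -0.65 against normal growth (SE 0.05, adjusted p = 0.0050) and of -0.56 against starvation (SE 0.05, adjusted p = 0.0145). Of 29 genes of the translocon, signal peptidase and oligosaccharyltransferase, limma called 0 in any comparison, with a median of 0.09 against normal growth and with 9 higher and 2 lower before adjustment with a p under 0.05. Before adjustment, 11.7% of all probe sets were higher and 11.2% lower there, and of the brighter genes 19.8% and 28.3%. Of 16 other regulators of the response, 0 were higher and 1, the apoptosis gene BAK1, was lower against normal growth (-0.31), with a median of 0.00. The shares over all probe sets and the brighter genes given above for this comparison apply here too.

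The ATF4 and DDIT3 target list, which stands for the PERK arm and is also read by other eIF2 kinases, had the largest median. Of its 17 genes, 7 (41.2%) were called higher and 1 lower with metformin against normal growth, with a median log2 change of 0.67. Calls there were 4.63% higher and 4.44% lower over all probe sets, and 9.3% and 14.1% over the brighter genes. DDIT3 (CHOP), the stress factor linked to cell death, had 10.80, 9.70 and 10.75 with metformin, 8.99, 8.78 and 8.97 in starvation, and 8.59, 8.81 and 8.71 in normal growth. Array B was again the lowest with metformin and still above all starved arrays. For DDIT3 the log2 change was 1.71 against normal growth (SE 0.30, adjusted p = 0.0256) and of 1.5 against starvation (SE 0.30, adjusted p = 0.055). NUPR1, a stress-induced chromatin protein, had 2.08 against normal growth, TRIB3, a pseudokinase, 1.63, and ASNS, asparagine synthetase, 1.29, while VLDLR had -0.55. Against starvation NUPR1 (1.71), ASNS (0.98) and PSAT1, an enzyme of serine synthesis (0.59), were called. These are 17.6% of the list, against 2.3% of all probe sets and 4.2% of the brighter genes. ATF4 itself, which is controlled mainly through translation, had a log2 change of 0.12 against normal growth (adjusted p = 0.63).

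In the list labelled cytosolic heat shock genes, calls were in the other direction. This list also holds HSPD1 and HSPE1, which encode the mitochondrial chaperonin, and subunits of the cytosolic chaperonin, so it is not purely cytosolic. Of its 16 genes, 7 were called lower and 0 higher with metformin against normal growth, with a median of -0.24. Lower calls there made up 4.44% of all probe sets and 14.1% of the brighter genes. Against starvation 3 were called lower, with a median of -0.20, where 1.98% of all probe sets and 6.65% of the brighter genes were. HSPH1, a cytosolic relative of HYOU1, had 9.63, 9.59 and 9.44 with metformin, 10.04, 9.85 and 9.92 in starvation, and 10.07, 9.95 and 10.07 in normal growth. Its metformin arrays lay below both other groups, which overlapped. For HSPH1 the log2 change was -0.48 against normal growth (SE 0.07, adjusted p = 0.0164). The subunits of the cytosolic chaperonin CCT3, CCT2 and TCP1 had -0.42, -0.41 and -0.34. Against starvation CCT3 (-0.38), CCT2 (-0.36) and the co-chaperone STIP1 (-0.29) were called. The lists were compared by these counts and medians alone, and no test between them was run.

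**Figure D5:**
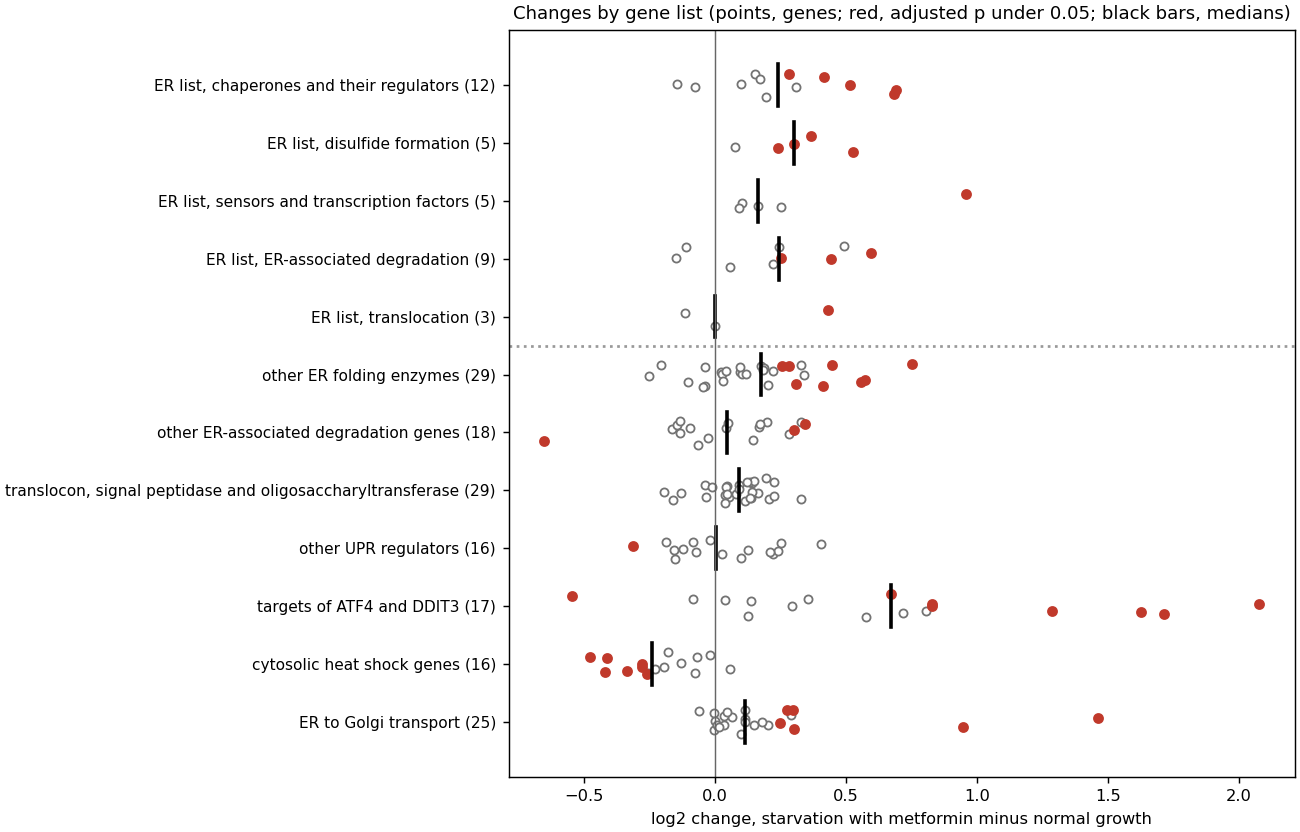
Log2 change with metformin against normal growth for each gene of the ER list by role and of the 7 other pathway lists, with the number of genes measured in brackets. Each point is a gene, red points passed an adjusted p of 0.05 over all probe sets, and black bars are medians. The medians run between -0.24 for the list labelled cytosolic heat shock genes, which includes the mitochondrial HSPD1 and HSPE1, and 0.67 for targets of ATF4 and DDIT3.

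The identity of the cells was checked with marker genes. Of 10 adrenocortical markers, 8 had means above the array median in every group, and the median level over these markers was 9.78 to 9.87 on the metformin arrays, 9.97 to 10.05 in starvation and 10.17 to 10.22 in normal growth. With metformin against normal growth MC2R was called higher and HSD3B2, NR5A1, INHA and SCARB1 lower. Of 10 fibroblast, 8 endothelial, 7 immune and 9 epithelial markers, 7, 7, 7 and 6 lay under the array median in starvation with metformin, and none was called in any comparison except EPCAM, higher against normal growth (log2 change 0.57, adjusted p = 0.0342). The part of these markers in the changes of the ER list was not tested.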

How the data were processed

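Total RNA of the 9 cultures was hybridised to Human Gene 1.0 ST arrays, 1 array per culture, and the submitters describe 3 independent experiments. The authors normalised the scans with RMA and deposited log2 values per probe set. Per the labels, Affymetrix Expression Console, RMA and limma were used, with no version stated there. RMA gives all arrays a common distribution, so a shift of most genes at once would not be seen. The array medians were 6.04 to 6.16, arrays give no read depth, and 3 arrays per group limit the precision.

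The deposited log2 values were tested in R 4.3.3 with limma 3.58.1 (lmFit and eBayes), with the 6 arrays of the 2 groups compared and no covariate. The Benjamini-Hochberg adjustment ran over the 33297 probe sets of the array, and a call is an adjusted p under 0.05. Of the probe sets, 19460 were annotated to 1 symbol, 1754 to several and 12083 to none, and 19429 of the first kind were found in RefSeq by Entrez identifier. A gene was read on its brightest single-symbol probe set, and levels of different probe sets were not compared. The members and lists were chosen with earlier results of these data known. Full values were given for the genes with the largest changes among those called (up to 6 against normal growth), for HSPA5, HSP90B1, HERPUD1, XBP1 and the 3 sensors whatever their values, and for up to 4 called genes per direction of each other list. Beyond these the text names the rest of the list by value, and MC2R and the other steroidogenic markers were named after their values were seen. HSPA1A, HSPA1B and other listed genes with no single-symbol probe set were not analysed here. The script was tested on simulated data. The 15 alternatives per comparison were other fits and scalings, filters, the methods' t-test, a replicate block and leaving out each array. What is called the methods' t-test is a t-test without limma's moderation. The paper names Student's t-test in its general statistics, while its array section names R and Bioconductor packages. Per-array values are given for the genes named in full, and the smallest two-sided exact permutation p for 3 against 3 arrays is 0.1.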

Additional observations from a re-analysis of the deposited data

How the results depend on the processing

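Counts of called genes in the ER list differed between settings, as did those over the whole array. Against starvation, 2 genes were higher with metformin (766 of all probe sets), and this count was 11 with all 9 arrays in one fit (1838), 9 with limma's trend and robust options (1319), 7 without dim probe sets (1422 of 19978), 6 with single-symbol probe sets only (1070 of 19460), 1 with arrays shifted to a common median (291), 1 with the methods' t-test (SERP1, 318), and 0 to 5 with an array left out (0 to 799). DERL2 was then called lower, making 1, with all 9 arrays, with trend and robust options, without dim probe sets and with single-symbol probe sets. Against normal growth, the 14 genes higher with metformin (1543 probe sets) became 7 with the methods' t-test (682), 0 to 12 with an array left out (200 to 2079), and 10 to 18 in the other fits apart from the block (1134 to 2151), where MANF, SEL1L, EDEM3, EIF2AK3 and CANX were called in some, while 1 gene (SEC61B, -0.12) was called lower with trend and robust options and with the methods' t-test. Between starvation and normal growth the t-test called 1 gene (PDIA4, with 3 equal starved values) and the other settings 0. With the replicate letter as a block, limma called 0 members and 0 probe sets in every comparison, with 12, 12 and 19 members higher at an unadjusted p under 0.05 with metformin against starvation, in starvation against normal growth and with metformin against normal growth. Deviations on arrays with the same letter correlated at -0.249 to 0.294, and those on arrays with different letters at -0.383 to 0.440. The labels tie no letter to an experiment. The direction turned only in genes near 0 and not called, here given as the range over fits with an array left out. With metformin against starvation these were CRELD2 (-0.0112 to 0.112), DNAJB11 (-0.0581 to 0.0355), P4HB (-0.0136 to 0.0220, with -0.0254 after the median shift and -0.0134 after a second quantile normalisation) and DERL1 (-0.000508 after the median shift). In starvation against normal growth they were ATF6 (-0.00347 to 0.0439), CRELD2 (-0.00686 to 0.0472), DERL3 (-0.150 to 0.0282), MANF (-0.00932 to 0.0808), SDF2L1 (-0.0329 to 0.0136, with 0.00392 after the second quantile normalisation), SEC61B (-0.00477 to 0.0289) and UGGT1 (-0.00947 to 0.0119). With metformin against normal growth SEC61A1 turned (-0.0224 to 0.0375). Alternatives for genes outside the ER list were added after seeing the data. The cause of these differences was not tested, beyond that a fit with an array left out has 5 arrays. Array signal limits the dim end, where DERL3 had the lowest mean of the list (6.44).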
